A study of Caenorhabditis elegans with 4 samples.

Results

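LIN-35::GFP sites on the X chromosome of *Caenorhabditis elegans* were taken as all peaks of the combined list that lie on X. They number 665 of 4794, against 951, 753, 928, 805 and 692 on chromosomes I, II, III, IV and V. The lists come from chromatin immunoprecipitation with sequencing (ChIP-seq) on hermaphrodite larvae of the first stage (L1) that had been starved to synchrony, then fed, and grown at 20 °C. Formaldehyde at 2% was used for all 4 samples. All animals were of strain YL409, with genotype unc-119(ed3) III and the transgene vrIs60, in which the *lin-35* promoter drives LIN-35 joined to GFP and FLAG with a *dpl-1* 3' UTR and *unc-119*(+) as marker. The genotype as labelled names no mutation of the endogenous *lin-35* gene, the strain was not outcrossed, and whole larvae were used, so that signal from different tissues is pooled. The series has 2 ChIP samples and 2 input samples from the same extracts. A peak list goes with each ChIP sample. The inputs were not analysed here.

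LIN-35 is the worm's retinoblastoma-like pocket protein. As part of the DREAM complex, with the E2F-like protein EFL-1, its partner DPL-1 and the MuvB proteins, it sits near gene starts and holds down genes of the cell cycle and, in somatic cells, genes of the germ line. The X chromosome of hermaphrodites is present in 2 copies and carries the dosage compensation complex, which lowers its expression to match that of males with a single X. X is also known for holding few genes expressed in the germ line. None of these was measured here.

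The lists give the position of each peak in WS220 coordinates with its score and number, and hold no read counts, so that the depth behind a peak is unknown. Replicate 1 held 26583 peaks, 4513 of them on X, and replicate 2 held 28727, 4820 of them on X. The authors' scores have a ceiling, which 579 of 665 X peaks (87.1%) and 3791 of 4129 autosomal peaks (91.8%) of the combined list reached, against 91.2% of all combined peaks. A peak's place is its rank by score with ties ordered by the authors' peak number, and place 1 is the best. Replicate peaks are given by the authors' peak number. X is 1 chromosome and there are 2 replicates, for which an exact two-sided test over replicates cannot give a p below 0.5, so X is set beside the autosomes without a test. Intervals on shares cover counting error only. The labels do not say whether the replicates came from separate cultures.

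The strongest X site stood far down the list, and then X sites became steadily more common until they were as dense as autosomal ones. The best X peak lay at 14101996 to 14102245 and took place 216. It was numbered 140 by replicate 1 and 298 by replicate 2. The best peaks of the autosomes took places 1 (II), 2 (III), 3 (V), 4 (IV) and 11 (I). Each replicate alone also began with autosomal peaks. The first X peak had number 140 in replicate 1, where the first peaks of the autosomes had numbers 1 to 9, and number 288 in replicate 2, where those of the autosomes had numbers 1 to 19. The 10th X peak of the combined list took place 560, against places 26 to 66 on the 5 autosomes. The 100th took place 1467, against 403 to 611 on the autosomes, including 611 on V, which carries about as many peaks as X.

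The density of X peaks relative to autosomal peaks climbed over about the first 2000 peak numbers. Among combined peaks numbered 1 to 500, X held 8 peaks, or 0.452 per Mb, and the autosomes held 492, or 5.96 per Mb, a ratio of 0.076. In numbers 501 to 1000 the ratio was 0.383, in 1001 to 1500 it was 0.599, and in 1501 to 2000 it was 0.647. From there it levelled off. X held 86 peaks (4.85 per Mb) and the autosomes 414 (5.02 per Mb) in numbers 2001 to 2500, a ratio of 0.968, and the 4 next bins of 500 gave 0.954 to 1.01. The last bin, numbers 4501 to 4794, gave 1.35, from 66 X peaks and 228 autosomal peaks. V alone extends over 20.9 Mb, against 17.7 Mb for X. By place, it held 78 peaks in 1 to 500 and 76 in 501 to 1000, against 8 and 38 on X. In 1001 to 1500 and 1501 to 2000 V held 69 and 74 peaks, against 57 and 61 on X. In each range of 500 from 2001 to 4000 V held 64 to 77 peaks, against 85 to 89 on X. From place 2001 on, X thus held more peaks than V over a shorter extent.

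Both replicates followed the same course. Replicate 1 gave ratios of 0.086, 0.325, 0.585 and 0.764 in its first 4 bins of 500, and replicate 2 gave 0.057, 0.419, 0.594 and 0.676. In the next 6 bins the ratios were 0.856 to 1.04 in replicate 1 and 0.850 to 1.14 in replicate 2. Past number 5000, X held 3839 peaks of replicate 1 and the autosomes 17743, a ratio of 1.01, and X held 4112 peaks of replicate 2 and the autosomes 19613, a ratio of 0.977. In each of the first 4 bins, the 2 replicates lay closer to each other than either lay to a ratio of 1. Past their head, the replicate lists thus held X and autosomal peaks at ratios near 1.

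**Figure D1:**
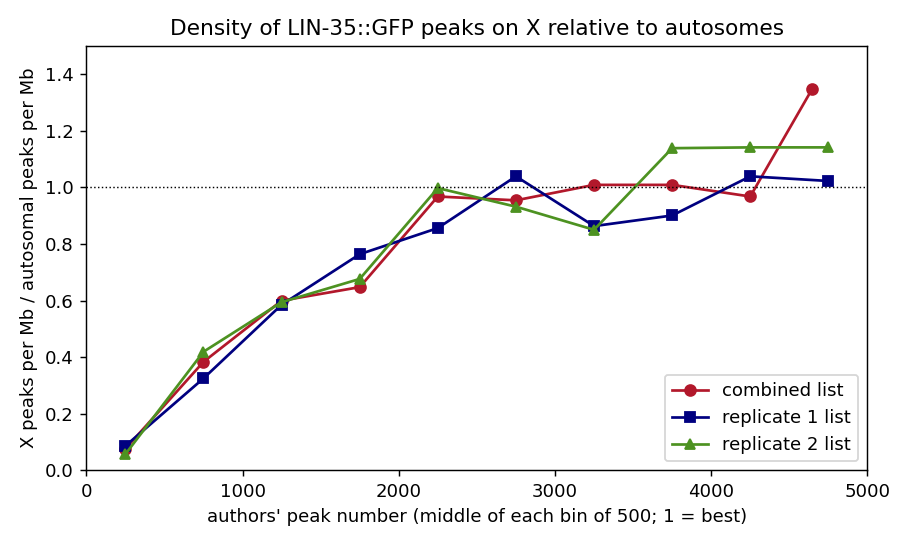
Peaks per Mb on X divided by peaks per Mb on the 5 autosomes (vertical axis, no unit), in bins of 500 of the authors' peak number (horizontal axis), for the combined list and each replicate list; the last combined bin holds numbers 4501 to 4794 only. All 3 lists lie between 0.057 and 0.086 in the first bin and, from number 2001 on, between 0.850 and 1.14 except for the last combined bin at 1.35.

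The same course appears as the share of X among peaks in successive parts of the combined list. X held 7 of the first 479 peaks, or 1.46% (Wilson 95% interval 0.710 to 2.99%). In the next 3 parts of the same size it held 6.89%, 10.4% and 12.3%, in the fifth 19.0%, and in the last 5 between 14.4% and 19.6%. X makes up 17.7% of the summed extents of the 6 nuclear chromosomes. X held 0 of the best 200 combined peaks, which by the limit of 3 counts for a count of 0 allows a share up to 1.5% (Wilson upper bound 1.88%), and 46 of the best 1000 (4.6%, interval 3.47 to 6.08%). Replicate 1 alone had 41 X peaks among its best 1000 and replicate 2 had 47.

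The 10 best X peaks were narrow, lay far apart and stood within the best 676 peaks of both replicates. After the peak at 14101996, the next 3 started at 6804912 (place 236, numbers 198 and 302 in replicates 1 and 2), at 5841149 (place 300, numbers 229 and 350) and at 5984601 (place 302, numbers 325 and 288). These 3 lie within 1 Mb of each other in the left part of X, whereas the best one lies in the right part. The peak at 6092022 took place 449 (numbers 473 and 463), that at 15841088 place 471 (numbers 430 and 540), and that at 1446890 place 479 (numbers 676 and 455). The peak at 2242870 took place 497 (numbers 464 and 542), and these first 8 are the X peaks among the best 500. The peaks at 3127711 (place 534, numbers 500 and 594) and at 9958647 (place 560, numbers 448 and 672) follow. Each of the 10 overlapped 1 peak in either replicate, and the midpoints of those replicate peaks lay 5.5 to 33 bp apart. The 10 peaks were 184 to 262 bp wide. No 2 of them were closer than 107 kb, and together they spanned 14.4 Mb of X. Their nearest combined peak of any place was 1389 bp away at the least, and a median of 5901 bp away. The genes at these positions, and the sequence under them, were not analysed here.

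X peaks, taken over a whole list, were spread more evenly along their chromosome than autosomal peaks along theirs. In the 17 whole windows of 1 Mb, X held 26 to 52 combined peaks with a median of 37 and a mean of 37.8 ± 7.27 (SD across windows), against 49.9 ± 19.7 and a range of 7 to 101 in the 80 autosomal windows. The standard deviation was 0.192 of the mean on X and 0.261, 0.326, 0.279, 0.261 and 0.455 of it on I to V. The variance divided by the mean, which is 1 for independent peaks placed at a uniform rate, was 1.40 on X and 3.13 to 6.78 on the autosomes. Replicate 1 showed the same order over all its peaks, with a standard deviation of 0.130 of the mean on X and 0.153 to 0.226 on the autosomes, as did replicate 2, with 0.124 on X and 0.188 to 0.326 on the autosomes. By the standard deviation over the mean, X was the most even of the 6 chromosomes in each of the 3 whole lists. By that measure it was not among better-placed peaks alone. For the 2397 better-placed combined peaks the value was 0.298 on X and 0.264 on I. For the best 1000 it was 0.467 on X and 0.315 to 0.480 on the autosomes, with fewer peaks per window on X. The variance divided by the mean was still lowest on X. It was 1.21 on X and 2.35 to 4.25 on the autosomes for the better-placed peaks. For the best 1000 it was 0.590 on X and 1.42 to 2.55 on the autosomes. X also had the lowest mean count per window in both. The means were 13.6 on X and 16.6 to 37.1 on the autosomes for the better-placed peaks. For the best 1000 they were 2.71 on X and 7.45 to 17.2 on the autosomes. This measure too depends on the mean count, so it does not compare evenness at equal counts. V had a density close to that of X, at 32.8 ± 14.9 combined peaks per window, but windows from 7 to 55.

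**Figure D2:**
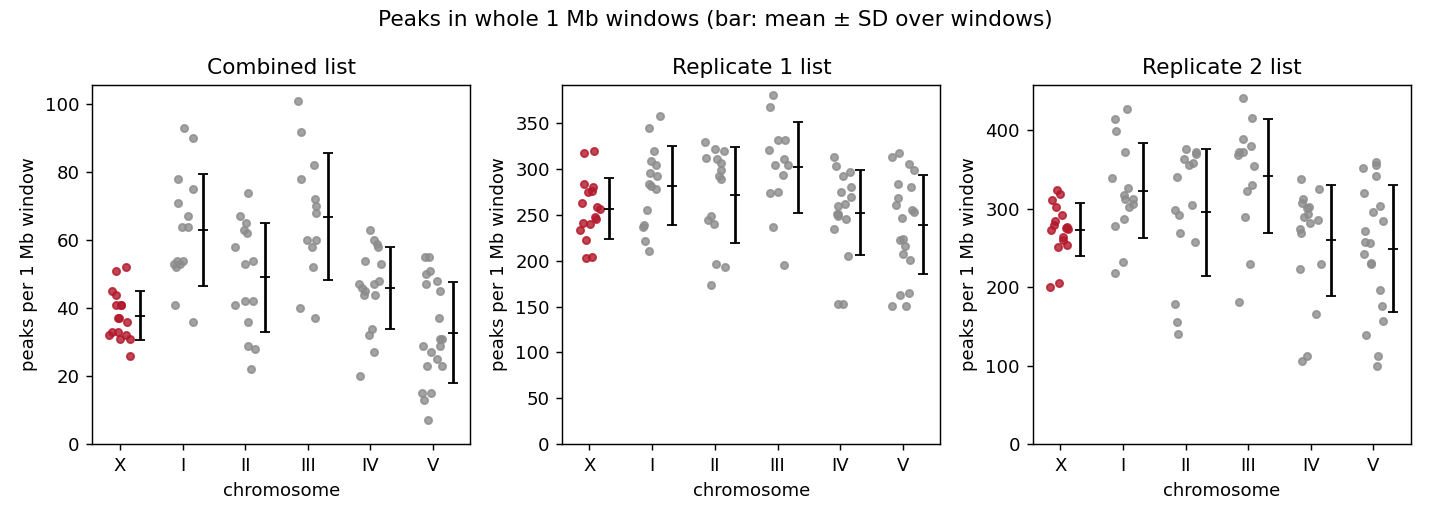
Peaks per whole 1 Mb window (vertical axis, each point 1 window) on X and on autosomes I to V (horizontal axis) in the combined list, the replicate 1 list and the replicate 2 list, with the mean and SD over windows as black bars. The X windows span 26 to 52 combined peaks, a narrower range than on any autosome.

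Along X, the fullest window was 13 to 14 Mb with 52 combined peaks and the emptiest 3 to 4 Mb with 26. The window of 4 to 5 Mb, next to the emptiest, held 51. In the replicate lists the window of 13 to 14 Mb held 317 and 303 peaks and that of 3 to 4 Mb held 280 and 319, so that the emptiest combined window was not empty in the replicates. The counts of the 2 replicates followed each other over the 17 windows (Spearman's rho of 0.87), and the combined counts followed them less closely (0.36 for replicate 1 and 0.43 for replicate 2). Windows are not independent, and these lists share libraries. In parts of 10% of the X extent, counts ran from 55 in the first and the last part to 88 in the eighth, a ratio of 1.60 between the fullest and the emptiest part, against 1.85 to 5.95 on the autosomes.

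The 3 windows with the most better-placed X sites lay next to each other in the right part of the chromosome. The windows from 13 to 16 Mb held 133 combined peaks, of which 62 (46.6%) were among the 2397 better-placed peaks of the combined list, with 18 to 24 in each window. The 13 windows from 0 to 13 Mb held 477 peaks, of which 158 (33.1%) were better-placed, with 8 to 16 in each. The window of 16 to 17 Mb held 11 better-placed of 33. As a share the stretch did not stand alone: single windows in it had 38.5%, 54.5% and 48.6%, whereas the window of 1 to 2 Mb had 51.6% (16 of 31) and that of 10 to 11 Mb 46.9% (15 of 32). This stretch was picked after the counts had been seen, and no test was made of it. Of the 46 X peaks among the best 1000, each window held 0 to 5, and the windows from 13 to 16 Mb held 11 together.

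**Figure D3:**
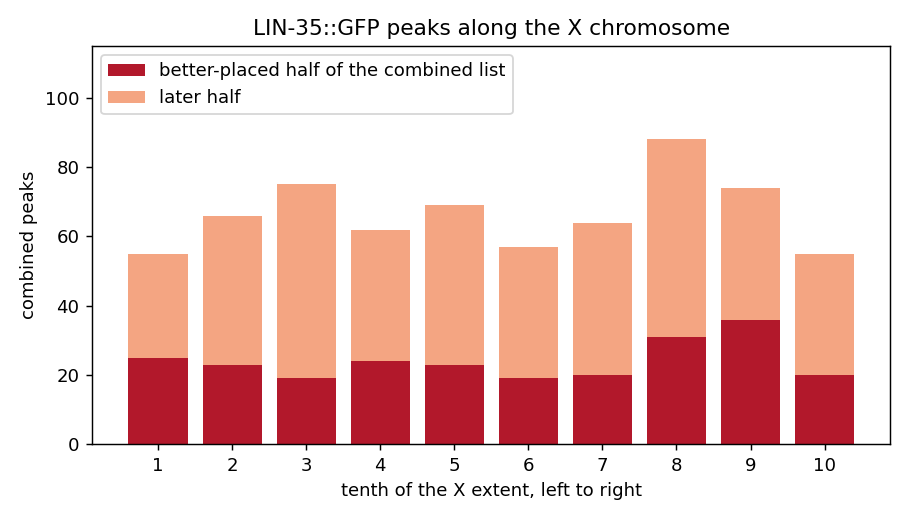
Combined peaks (vertical axis, count) in each 10% of the X extent from left to right (horizontal axis), divided into the 2397 better-placed peaks of the combined list and the later ones. The ends hold 55 peaks each and the eighth part 88, and the better-placed peaks are most numerous in the ninth part with 36.

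Neighbouring sites on X lay further apart than on most autosomes, and fewer of them were close. Midpoints of neighbouring X peaks lay a median of 14697 bp apart (quartiles 4544 and 36858 bp, 664 distances), against 14175 bp on V and 8753 to 11716 bp on the other autosomes. Of the X distances 32 (4.82%) were 1 kb or less, against 5.64 to 8.71% on the autosomes and 6.98% of all nuclear distances. Distances of 100 kb or more made up 3.46% on X (23), below V with 5.64% and above the other autosomes with 0.324 to 2.86%. A chromosome with fewer peaks has longer distances, and V with a like density had a like median.

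The widest gap on X, 219 kb, lay between the first X peak by position, at 104775 to 105098, and the next at 323998 to 324321. It held 9 peaks of replicate 1 and 7 of replicate 2 that overlap no combined peak. The second, 219 kb from 1627002 to 1845843, held 20 and 25 such peaks, and the third, 174 kb from 1128534 to 1302625, held 41 and 27. All 3 gaps lay in the first 2 Mb of X, and none was empty in the replicate lists. The last X peak by position, at 17640730 to 17641053, took place 3822, with number 3691 in replicate 2 and 14939 in replicate 1.

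Close pairs on X held few strong peaks, as did X as a whole. In 8 of the 32 pairs the intervals overlapped (25%), against 44 of 302 autosomal pairs (14.6%) and 8.97 to 22.7% on single autosomes. In 12 pairs (37.5%), both members overlapped the same peak of at least 1 replicate, against 55 autosomal pairs (18.2%) and 12.8 to 27.3% on single autosomes. The closest pair, at 11473188 to 11473511 and 11473389 to 11473712, had midpoints 201 bp apart and places 2166 and 3382, and both members overlapped the same peak in either replicate. The better member of an X pair took a median place of 2127, against 1530 in autosomal pairs, and the worse member one of 3673, against 3539 in autosomal pairs and 3227 to 3867 on single autosomes. The better member was among the best 1000 in 3 X pairs, against 103 autosomal pairs. Over all peaks, the median place was 2993 on X and 2280 on the autosomes, and 46 of 665 X peaks (6.92%) and 954 of 4129 autosomal peaks (23.1%) were among the best 1000.

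**Figure D4:**
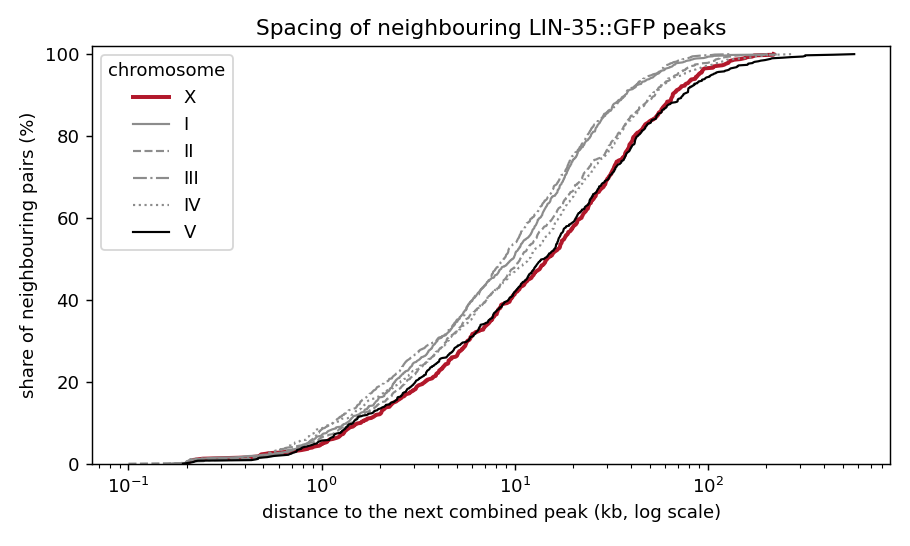
Cumulative share of neighbouring combined peaks (vertical axis, %) by the distance between their midpoints (horizontal axis, kb, log scale) for X and autosomes I to V; 1 distance of 0 on II is drawn at the left end. The X curve runs close to that of V and to the right of the other 4 autosomes, with medians of 14.7 kb on X and 14.2 kb on V.

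Most X sites were found in both replicates, and nearly all the others in replicate 2. The same held for the whole combined list, in which replicate 2 alone supported 243 peaks and replicate 1 alone 4. The combined list was drawn from the same replicates, so overlap with them is not independent support. Of the 665 X peaks, 613 (92.2%, Wilson 95% interval 89.9 to 94.0%) overlapped a peak of both replicates by at least 1 bp, against 3933 of 4129 autosomal peaks (95.3%, 94.6 to 95.9%) and 94.8% of all combined peaks. The shares on single autosomes were 93.4% on IV and 95.5 to 95.9% on the other 4. Replicate 2 alone supported 51 X peaks (7.67%), against 192 autosomal peaks (4.65%), with 31 to 50 peaks on single autosomes (3.99 to 6.21%). These 51 stood low, with places from 2121 to 4787 and a median of 4196, and their partners in replicate 2 had numbers from 1535 to 5224. The nearest peak of replicate 1 lay a median of 1127 bp away, and within 500 bp in 5 cases (9.8%). The 192 such autosomal peaks also stood low, with a median place of 4072.5. Their nearest peak of replicate 1 lay a median of 1431 bp away, and within 500 bp in 22 cases (11.5%). A single X peak lacked replicate 2, at 16929528 to 16929621. It was 94 bp wide and took place 728, its partner in replicate 1 had number 581, and the nearest midpoint in replicate 2 lay 145 bp away. Its neighbour at 16929707 to 16929866, 212 bp away, overlapped the same peak of replicate 1 and took place 2425. That neighbour also overlapped the peak numbered 726 of replicate 2, so replicate 2 had a well-placed peak next to the site that lacked it.

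By range of places, the autosomal share of supported peaks lay within the interval of the X share in 8 of 9 ranges. The exception was places 501 to 1000, where 37 of 38 X peaks (97.4%, interval 86.5 to 99.5%) and all 462 autosomal peaks overlapped both replicates. The remaining X peak there is the one at 16929528 named above. In places 1 to 500, all 8 X peaks and all 492 autosomal peaks overlapped both replicates. In places 2001 to 2500 this was 96.5% of 86 X peaks and 98.8% of 414 autosomal peaks, and in places 3001 to 3500 it was 94.4% of 89 X peaks and 92.9% of 411 autosomal peaks. In places 3501 to 4000 it was 86.5% of 89 X peaks and 90.8% of 411 autosomal peaks, and from 4001 on 81.6% of 152 X peaks and 83.0% of 642 autosomal peaks. The X intervals in the last 3 of these ranges were 87.5 to 97.6%, 77.9 to 92.1% and 74.7 to 86.9%. X has more of its peaks at late places, with a median place of 2993 against 2280 on the autosomes, and support fell with place on both.

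Both replicates put X peaks lower in their lists than autosomal peaks. The best overlapping peak of replicate 1 had a median number of 2924 for X peaks, or 11% down that list, against 2159 for autosomal peaks (8.12%). In replicate 2 it was 2937 for X peaks (10.2%), against 2257 for autosomal peaks (7.86%). No autosome had a median as late as X in either replicate, the latest being IV with 2330 in replicate 1 and 2415 in replicate 2. The medians of X in the 2 replicates differed by less than those of X and IV.

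Over the whole list the replicates ordered X sites less alike than autosomal sites. Ranges of places, given below, cannot show whether this holds at equal places. Across the 613 X peaks found in both, the peak numbers of the 2 replicates had a Spearman's rho of 0.57, against 0.77 to 0.82 on single autosomes and 0.80 over 3933 autosomal peaks. With peaks after place 1000 alone, rho was 0.46 on X (568 peaks) and 0.55 on the autosomes together (2979), with 0.50 to 0.58 on single autosomes. Within the 9 ranges of places, rho was higher on X than on the autosomes in 6 and lower in 3. It was 0.37 on X and 0.20 on the autosomes in places 501 to 1000, -0.26 on X and -0.35 on the autosomes in 1001 to 1500, and -0.54 on X and -0.55 on the autosomes from 4001 on. In places 1501 to 2000 it was -0.63 on X and -0.54 on the autosomes. From place 1001 on, rho was negative in every range on both X and the autosomes. The combined list was drawn from the same replicates, so holding place within a range can itself set the sign of rho. The values within ranges, among them those after place 1000, thus do not measure how alike the replicates ordered the sites. All of these are descriptions across sites that share libraries. Some partners were very weak: 56 X peaks (8.42%) and 310 autosomal peaks (7.51%) overlapped in replicate 1 no peak better than number 10000, whereas in replicate 2 this held for 2 X peaks and 6 autosomal peaks.

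**Figure D5:**
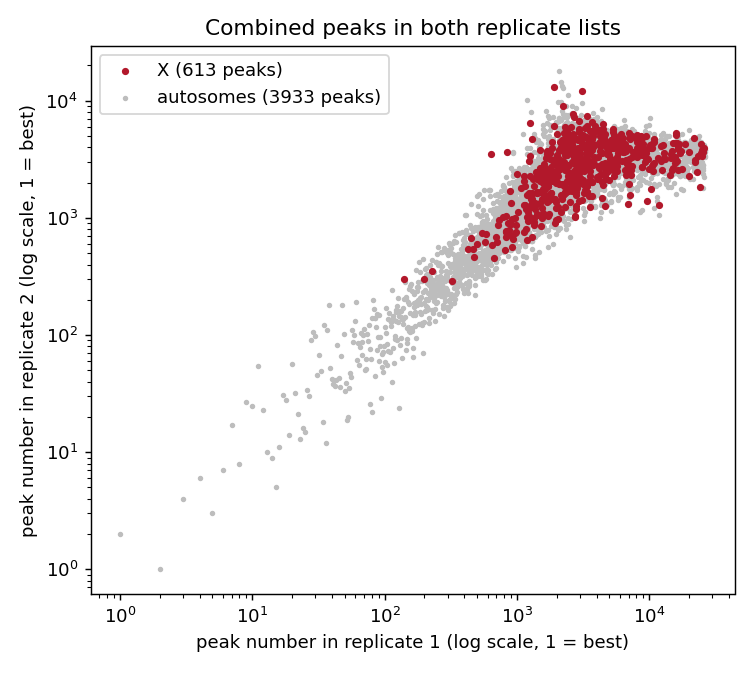
Peak number of the best overlapping peak in replicate 1 (horizontal axis, log scale) and replicate 2 (vertical axis, log scale) for the 613 X peaks (red) and 3933 autosomal peaks (grey) found in both. The X points begin at 140 and 288, beyond the head of the autosomal cloud, and then lie within it.

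Replicate midpoints also lay further apart on X. Where a combined peak had 1 partner in either replicate, the midpoints of the 2 partners lay a median of 33 bp apart on X (quartiles 17 and 61 bp, 505 peaks), against 21 bp over 3469 autosomal peaks and 20 to 22.5 bp on single autosomes. Within ranges of places the difference in bp was smaller, except in places 3501 to 4000. Places within a range were not equal: the median place was 375.5 on X and 248.5 on the autosomes in 1 to 500. In 501 to 1000 it was 797 on X and 744.5 on the autosomes. In places 1 to 500 the medians were 12.8 bp for 8 X peaks and 7 bp for autosomal peaks, in 501 to 1000 they were 21 bp on X and 14 bp on the autosomes, in 2001 to 2500 they were 28 bp on X and 26 bp on the autosomes, and from 4001 on both were 53 bp. In places 3501 to 4000 they were 51.5 bp on X and 38 bp on the autosomes. After place 1000 the median was 35 bp on X, against 27 to 33 bp on single autosomes.

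X peaks were mostly of the list's common width. Of the 665 X peaks, 596 (89.6%, Wilson 95% interval 87.1 to 91.7%) were 324 bp wide, against 2844 of 4129 autosomal peaks (68.9%), 65.9 to 71.8% on single autosomes and 71.8% of all combined peaks. The other 69 X peaks were narrower, down to 82 bp, with a median of 144 bp, against a median of 185 bp for the 1270 narrower autosomal peaks, and 0 X peaks and 15 autosomal peaks were wider. Narrow peaks belonged to the head of the list on both. In places 1 to 500, 0 of 8 X peaks and 1 of 492 autosomal peaks had the common width, and in places 501 to 1000 these were 3 of 38 X peaks and 19 of 462 autosomal peaks. In places 1001 to 1500, where widths changed over, 66.7% of 57 X peaks had it (interval 53.7 to 77.5%), against 41.3% of 443 autosomal peaks (36.8 to 46.0%) and 42.0% of 69 peaks on V. X peaks stood later within that range, with a median place of 1298, against 1245 on the autosomes and 1274 on V. In places 1501 to 2000 the shares were 93.4% of 61 X peaks and 84.7% of 439 autosomal peaks, with 94.6% of 74 on V, and beyond place 2500 they were 100% on X and 98.3 to 100% on the autosomes. The width is the peak caller's, and what makes a peak narrow was not tested.

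A smaller part of the X peaks shared by the replicates entered the combined list than on 4 of the autosomes. Of 1740 X peaks of replicate 1 that overlap replicate 2, 648 (37.2%, Wilson 95% interval 35 to 39.5%) overlapped a combined peak, against 4067 of 9365 autosomal peaks (43.4%), with 36.9% on V and 42.1 to 47.5% on the other 4, and 42.5% of all such nuclear peaks. Of 1786 X peaks of replicate 2 that overlap replicate 1, 668 did (37.4%, 35.2 to 39.7%), against 4156 of 9522 autosomal peaks (43.6%), with 37.6% on V, and 42.7% of all. The share on V lay within the interval of X in both replicates. At equal peak numbers X lay above the autosomes in some ranges and below them in others. In replicate 1 the shares were 93.3% for X and 93.5% for autosomes in numbers 2001 to 3000, 68.3% for X and 63.4% for autosomes in 3001 to 4000, 49% for X and 46.0% for autosomes in 4001 to 5000, and 36.6% for X and 31.8% for autosomes in 5001 to 7500. In replicate 2 they were 97.2% for X and 98.1% for autosomes in 3001 to 4000, 77.7% for X and 75.8% for autosomes in 4001 to 5000, and 23.5% for X and 24.7% for autosomes in 5001 to 7500. The autosomal share lay within the interval of the X share in each of these ranges.

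Outside the combined list the replicates held many more X peaks, most of which did not overlap the other replicate. The same held for the nuclear chromosomes together. Replicate 1 had 3864 X peaks that overlap no combined peak, 1092 of which overlapped replicate 2. Replicate 2 had 4093, of which 1118 overlapped replicate 1. Of all 26553 nuclear peaks of replicate 1, 4723 overlapped a combined peak, and 6390 of the others overlapped replicate 2. Of all 28703 nuclear peaks of replicate 2, 5105 overlapped a combined peak, and 6484 of the others overlapped replicate 1. Over its whole list, 38.6% of X peaks and 41.8% of all nuclear peaks of replicate 1 overlapped replicate 2. For replicate 2 the shares overlapping replicate 1 were 37.1% of X peaks and 39.4% of all nuclear peaks. How many such overlaps arise by chance was not tested. The best X peak of replicate 1 outside the combined list had number 2429, at 6808701 to 6809000, and overlapped replicate 2. The best in replicate 2 had number 3349, at 1062634 to 1062969, and overlapped no peak of replicate 1. Combined peaks were overlapped by 14.4% of X peaks and 18.5% of autosomal peaks of replicate 1, against 17.8% of all its nuclear peaks, and by 15.1% of X peaks and 18.3% of autosomal peaks of replicate 2, against 17.8% of all. Among numbers 1001 to 2000 of replicate 1, 100% of X peaks and 99.5% of autosomal peaks overlapped a combined peak, and in replicate 2 100% of X peaks and 99.9% of autosomal peaks.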

How the data were processed

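Peak lists were deposited by the authors for either ChIP replicate and for both combined, on WormBase WS220 per the file headers. The source column names SPP and the irreproducible discovery rate (IDR). The aligner, versions, thresholds, use of input and rule of combination were all not given in the sources used here. The score is the authors' own, of unstated scale, and was used to rank peaks within a list. In replicate 2, peaks numbered 1402 to 4176 have scores that on the whole rise with peak number, so replicate peaks were described by number.

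Computed here with Python 3.11.15, numpy 2.4.6, pandas 2.3.3 and scipy 1.17.1 (figures: matplotlib 3.10.9): overlap of at least 1 bp, distances between midpoints, counts in whole 1 Mb windows and Wilson 95% intervals. The extent of a chromosome is its largest peak end in any list. Functions were tested on simulated lists. Mitochondrial peaks (30 and 24 in the replicates) were left out. The peaks named are the 10 best on X, the first and last by position, the closest pair, the widest 3 gaps, the extreme windows and those with incomplete support where 5 or fewer; the best X peaks outside the combined list were added after their values were seen. The members, measures and alternatives were chosen with earlier results of these data known. Neither a WS220 genome nor a WS220 annotation was used, so no sequence is printed and no peak is assigned to a gene.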

Additional observations from a re-analysis of the deposited data

How the results depend on the processing

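Of 43 alternatives, 39 could be set against a spread (the SD between replicates, or the Wilson interval). Of these, 20 left the value of X within it, 17 moved it and 2 reversed its order against the comparison value. The other 4, on the agreement of the replicates, had none. The X to autosome density ratio of 0.76 was 0.72 to 0.77 without 1 replicate, 0.52 among the better-placed 50% of the combined list, 0.079 among the best 500, 0.81 without I, 0.81 without III and 0.68 without V. The X share in the first 10% of the list, 1.46%, was 10.2% over all peaks of replicate 1 and 11.8% over all of replicate 2. Those 2 shares are by score, and by peak number replicate 2 gave 11.1%. The first 10% of the replicate lists reach far deeper. The X share in the last 10%, 19.6%, lay above the X share of the genome (17.7%), but was 17.3% without replicate 2 (20% without replicate 1) and 16.6% over all peaks of replicate 2, below it; the cause was not tested. Support by both replicates on X was 87.7% with overlap of at least 50% of the peak and 84.1% with midpoints within 100 bp, and 92.3 to 99.8% when a single replicate had to overlap. Passage into the combined list was 40.0% and 42.3% with 50% overlap and 71.9% and 76.5% in the best 25% of replicates 1 and 2. The median distance on X was 15184 to 16088 bp without 1 replicate. The Spearman correlation of replicate peak numbers on X was 0.56 with 50% overlap and 0.48 among the better-placed 50%, where the replicate midpoints lay 23 bp apart. The better-placed 50% is also a range of places, so its correlation has the limit given above for ranges. The share at the common width was 95.8% after place 1000, against 88.9% on autosomes. In each alternative the order of X and autosomes was kept, apart from the last 10%. The 2 alternatives on widths and the single-replicate values of support were chosen after seeing the data. No paired analysis was possible because peak lists came with the ChIP samples alone. Depth is unknown, so weak peaks cannot be weighed by reads.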
